A study of Arabidopsis thaliana with 6 samples.

Results

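This account follows 5 Arabidopsis thaliana genes that make or decorate flavonoid pigments, tannins and sterol glucosides of the seed. They are DFR, BAN, UGT78D1, UGT78D2 and UGT80B1, chosen by name for these roles, with earlier results of these data known. Each has 1 probe set that the platform annotation assigns to a single gene, and they are 5 of the 9532 genes that have such a probe set in the deposited array table. Expression was measured on 6 single-colour arrays, 3 of wild-type (DCL1/DCL1) and 3 of homozygous dcl1-15 embryos. DCL1 encodes the Dicer-like enzyme that releases most plant microRNAs from their precursors, and dcl1-15 is a mutant allele of it. The plants were of Ws origin crossed repeatedly to Landsberg erecta, and all descended from a DCL1/dcl1-15 parent. Each sample pooled 300 embryos taken out of their ovules, and the lots of both genotypes were collected in turn. Mutant embryos came from siliques on DCL1/dcl1-15 plants in which the normal siblings had reached the torpedo stage, when the cotyledons elongate, so their age was set by their siblings and not by their own form. Wild-type embryos came from DCL1/DCL1 sister plants, so the mother plants, and with them the maternal seed coats, also differed in genotype.

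Flavonoids arise from chalcones through a short chain of enzymes that branches to flavonols, anthocyanins and proanthocyanidins, the last also called condensed tannins. In Arabidopsis seeds proanthocyanidins accumulate in the inner layer of the seed coat and brown it as the seed matures, whereas flavonol glycosides are found in the embryo as well as in the coat. Mutants of many of these genes were found by their pale seeds and named transparent testa. UGT enzymes transfer a sugar from a UDP-sugar to a small molecule such as a flavonol or a sterol, which changes its solubility and where it is stored.

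Levels are the authors' normalized log2 values, so a difference of 1 is a doubling of the normalized value, and the median value per array ran from 6.34 to 6.48. Values near the low end of the scale, about 0.68, have no stated distance from background, and 19.4% of the 17122 probe sets tested had no value above log2 of 4. Probe sets differ in how brightly they bind, so a level is compared only with the same probe set's level on another array. Differences are dcl1-15 minus wild type. A gene is said to have risen or fallen if limma's adjusted p, adjusted by Benjamini-Hochberg across the 17122 probe sets, was under 0.05. By that rule 39.1% of all probe sets differed between the genotypes, 18.3% higher and 20.8% lower in dcl1-15. No single-gene probe set carried the name DCL1, and the mutated gene's own level therefore gives no check of the labels. Array 1 held the lowest value of its genotype more often than the other arrays did, for 42.0% of probe sets in wild type and 39.4% in dcl1-15. Without both arrays numbered 1 more probe sets were called, 8905 against 6702.

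DFR, dihydroflavonol 4-reductase, acts at the entry to the anthocyanin and tannin branches by reducing dihydroflavonols to leucoanthocyanidins. Its log2 level was 6.60, 8.56 and 7.98 on wild-type arrays 1, 2 and 3. On dcl1-15 arrays 1, 2 and 3 it was 8.66, 9.64 and 9.93. The genotypes did not overlap, but the lowest dcl1-15 value lay close above the highest wild-type one, and array 1 was the lowest of its genotype in both. The mean went from 7.71 ± 1.01 to 9.41 ± 0.67 (SD, n = 3 each), a 3.24-fold rise of 1.70 ± 0.50 (SE) on the log2 scale with limma adjusted p = 0.0263. The 95% interval of the fold ran from 1.48 to 7.11. The call was lost when dcl1-15 replicate 2 (adjusted p = 0.0948) or replicate 3 (adjusted p = 0.0958) was left out, and without both arrays numbered 1 it remained at adjusted p = 6.65e-05 with a rise of 1.51.

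BAN, anthocyanidin reductase, opens the tannin branch by turning anthocyanidins into the flavan-3-ol units from which proanthocyanidins are built, and in Arabidopsis it is known from the tannin cells of the young seed coat. Its level was 1.53, 3.65 and 2.56 on the wild-type arrays in order of their number. In dcl1-15 it was 3.90, 4.46 and 4.91. All 3 mutant values lay above all wild-type values, and 4 of the 6 values lay below log2 of 4, toward the low end of the scale. The mean went from 2.58 ± 1.06 to 4.42 ± 0.50, a rise of 1.85 ± 0.49 (SE) or 3.60-fold (95% interval 1.66 to 7.80, limma adjusted p = 0.0173). When every value below log2 of 4 was raised to that floor, the difference shrank to 0.46, or 1.37-fold, and did not pass (adjusted p = 0.251). It did not pass without dcl1-15 replicate 2 or 3 either (adjusted p = 0.0613 and 0.0647), and without both arrays numbered 1 it rose by 1.58 (adjusted p = 0.00109).

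**Figure D1:**
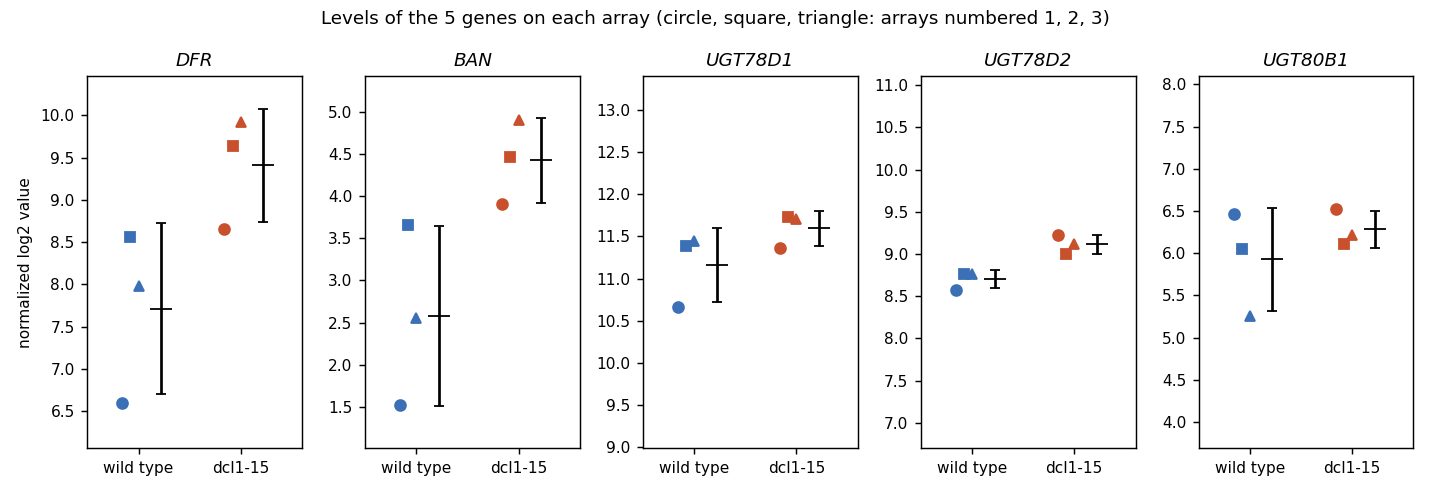
Normalized log2 value of each gene on each array, with wild type in blue, dcl1-15 in orange and the array number given by the symbol; the black mark and bar are the mean and SD of 3 arrays. Every panel spans the same height in log2 units, and DFR and BAN are spread over a wider range than the 3 UGT genes, with the circle (array 1) lowest in both genotypes of these 2.

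UGT78D1 transfers rhamnose to flavonols and UGT78D2 transfers glucose to flavonols and anthocyanidins, both at the same position of the flavonoid. UGT78D1 measured 10.66, 11.39 and 11.44 in wild type. In dcl1-15 it measured 11.36, 11.73 and 11.70. The genotypes overlapped, because dcl1-15 array 1 lay below wild-type arrays 2 and 3. The mean was 11.16 ± 0.44 in wild type and 11.60 ± 0.21 in dcl1-15, a difference of 0.43 ± 0.21 (SE) that did not pass (limma adjusted p = 0.130, 95% interval of the fold 0.973 to 1.87). With the replicate number as a block, which removes what same-numbered arrays share, the same difference passed (adjusted p = 0.0106), and it also passed without both arrays numbered 1, at 0.30 (adjusted p = 0.0296). Without wild-type replicate 1 alone it was 0.18 (adjusted p = 0.262), and with any 1 array left out it lay between 0.18 and 0.57 and did not pass.

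UGT78D2 varied least among the 5 genes. It measured 8.58, 8.76 and 8.76 on wild-type arrays 1, 2 and 3. The dcl1-15 arrays gave 9.23, 9.00 and 9.12. The genotypes did not overlap, and here array 1 was the highest of the mutant arrays. The mean went from 8.70 ± 0.11 to 9.11 ± 0.12, a difference of 0.41 ± 0.16 (SE) or 1.33-fold that missed the threshold (limma adjusted p = 0.0708). The 95% interval of the fold was 1.03 to 1.72. Under the floor its difference stayed the same, since no value of UGT78D2 lies below log2 of 4, and it passed (adjusted p = 0.0309).

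UGT80B1, also known as TRANSPARENT TESTA 15, attaches glucose to membrane sterols, and its mutants have pale seeds although sterols are not part of the flavonoid chain. It measured 6.47, 6.05 and 5.26 in wild type. It measured 6.53, 6.11 and 6.21 in dcl1-15. The genotypes overlapped, and wild-type array 3 was the lowest of the 6. The mean was 5.93 ± 0.61 in wild type and 6.28 ± 0.22 in dcl1-15, a difference of 0.36 ± 0.33 (SE) that did not pass (limma adjusted p = 0.430). The fold had a 95% interval from 0.757 to 2.16, so folds below 1 and folds up to 2.16 both lay within it. Without wild-type replicate 3 the difference was 0.024, and without wild-type replicate 1 it was 0.63 (adjusted p = 0.0979).

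Of the 5 genes, 2 rose, DFR and BAN, and 0 fell, beside 18.3% of all probe sets called higher. Without dcl1-15 replicate 2 or without replicate 3, 0 of the 5 rose, and without both arrays numbered 1, 3 rose. All 5 had a higher mean in dcl1-15, as did 45.8% of all probe sets. The groups did not overlap, with dcl1-15 higher, in DFR, BAN and UGT78D2, beside 24.0% of all probe sets (52.5% in either direction). When same-numbered arrays were set against each other, dcl1-15 was the higher array in all 3 pairs for each of the 5 genes, which holds for 32.0% of all probe sets. These differences were 2.06, 1.08 and 1.95 for DFR in the order of the array numbers. For BAN they were 2.38, 0.81 and 2.35, so number 2 gave the smallest difference for both reductases. For UGT78D1 they were 0.70, 0.34 and 0.26, and for UGT78D2 0.65, 0.24 and 0.36. UGT80B1 gave 0.057, 0.061 and 0.95, so its mean difference came almost wholly from the pair numbered 3. Within that pair it rested on the wild-type array. The difference was 0.024 without wild-type replicate 3 and 0.39 without dcl1-15 replicate 3.

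Whether the genes differed from one another in their response was tested on the within-array difference of 2 probe sets, for all 10 pairs, with a two-sided exact permutation test over the 6 arrays. With 3 arrays against 3 the smallest p this test can give is 0.1, so no pair could pass 0.05 by it. The difference between DFR and UGT78D1 shifted by 1.26 from wild type to dcl1-15 without overlap (exact p = 0.1, adjusted p = 0.4 over 10 pairs). BAN against UGT78D1 shifted by 1.41, also without overlap (exact p = 0.1, adjusted p = 0.4). DFR against BAN shifted by -0.15 (exact p = 0.5), and UGT78D1 against UGT78D2 by 0.017 (exact p = 0.8), with overlap in both. Against UGT78D2 the shifts were 1.28 for DFR and 1.43 for BAN, and there the genotypes overlapped (exact p = 0.2 for each). The test regroups all 6 arrays and does not use their numbers. Between same-numbered arrays DFR against UGT78D1 shifted by 1.36, 0.74 and 1.69, and BAN against UGT78D1 by 1.68, 0.47 and 2.09, all in 1 direction. With the floor at log2 of 4 the shift of BAN against UGT78D1 was 0.025 (exact p = 0.9), while that of DFR against UGT78D1 was unchanged. These shifts are given as a description of the 6 arrays.

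DFR and BAN ranked the 6 arrays in the same order. From lowest to highest it ran wild type 1, 3 and 2, then dcl1-15 1, 2 and 3. The same order was found for 1.44% of all tested probe sets, 247 in number. Among the measured seed coat markers DELTA-VPE, which encodes a vacuolar processing enzyme known from inner seed coat layers, shared it, and UGT73B1 did among the 29 measured UGT genes. The order was looked up after the values of DFR and BAN had been seen. More widely, the arrays numbered 1 held the lowest value of both genotypes for 3 of the 5 genes, DFR, BAN and UGT78D1, and for 25.3% of all probe sets.

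The 5 measured seed coat markers other than BAN moved the same way as both reductases. Of 19 listed seed coat genes 6 were measured, BAN among them, and all 6 rose, beside 18.3% of all probe sets. This count depended on the setting. It was 4 with the floor at log2 of 4 and 4 without both arrays numbered 3. Without dcl1-15 replicate 2 or without dcl1-15 replicate 3 it was 5, as it was where dim probe sets, BAN among them, were left out. The setting with less information on the spread, described in the last section, gave 1. The marker lists were drawn up with earlier results of these data known. SWEET15 (SAG29), a sugar transporter of the seed coat and endosperm, went from 6.34 ± 0.23 to 9.40 ± 0.28 (limma adjusted p = 3.16e-05), and the peroxidase gene PER36 rose by 2.43. DELTA-VPE rose by 2.15, the sugar transporter gene SWEET11 by 1.62 and AT1G71250 by 1.15. The median difference of the 6 was 2.00, against -0.066 over all probe sets. The log2 of their summed linear values was 11.06 to 11.20 on the wild-type arrays and 12.60 to 12.71 on the dcl1-15 arrays. This sum rests mostly on the brightest probe sets. Without BAN it was nearly the same, 11.06 to 11.19 in wild type and 12.59 to 12.70 in dcl1-15. In wild type 2 of the 6 had a mean below log2 of 4, BAN and PER36, and in dcl1-15 all 6 means lay above it. Of 11 listed endosperm genes only AT5G26630 was measured, at 2.60 ± 0.13 in wild type and 2.45 ± 0.17 in dcl1-15 (adjusted p = 0.491).

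The 3 measured embryo markers moved the opposite way. Of 15 listed, 3 were measured and all 3 fell, beside 20.8% of all probe sets. YAB3, a gene of the lower side of cotyledons and leaves, went from 10.82 ± 0.30 to 6.91 ± 0.44, BBM, a factor of embryonic growth, from 5.49 ± 0.51 to 3.90 ± 0.13, and the shoot meristem signal gene CLV3 from 3.07 ± 0.58 to 1.63 ± 0.19. All values of CLV3 lie below log2 of 4. The part of the tissue makeup in the rises of DFR and BAN was not tested. In pooled tissue, more cells of a type and more RNA per cell cannot be told apart.

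**Figure D2:**
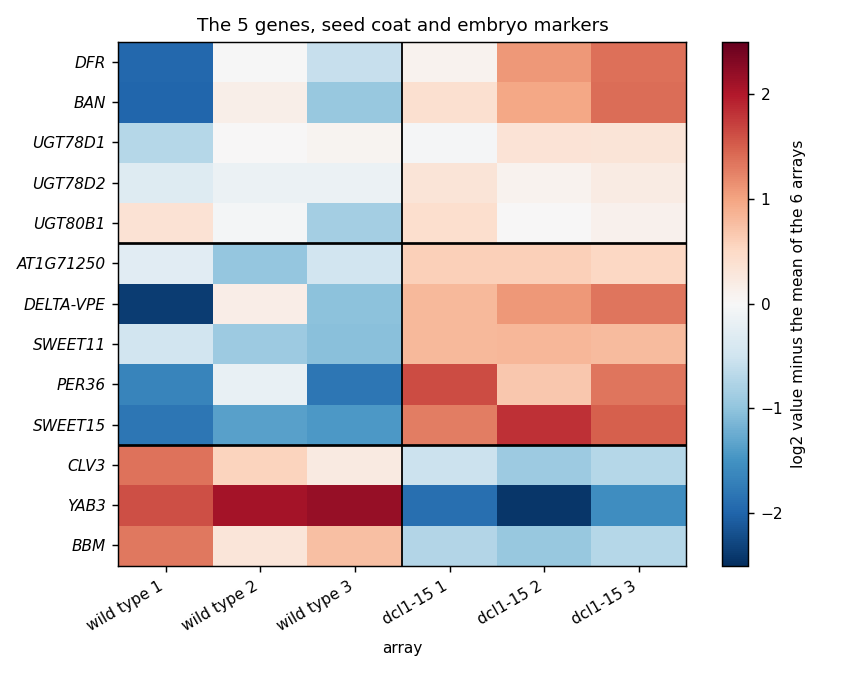
Log2 value of each gene minus its own mean over the 6 arrays, one column per array, for the 5 genes (top block), the 5 other measured seed coat markers (middle) and the 3 measured embryo markers (bottom). DFR and BAN are lowest on wild type 1 and highest on dcl1-15 3, as DELTA-VPE is, the other seed coat markers are lower on the wild-type arrays and higher on the dcl1-15 arrays, and the embryo markers are reversed.

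The flavonoid route as a whole could be read for few genes. The lists of flavonoid enzymes, of decoration and transport, of flavonoid regulators and of general phenylpropanoid enzymes held 10, 18, 18 and 8 genes, of which 3, 5, 0 and 0 were measured. Of these 8 genes 5 rose, 1 fell and 2, UGT78D1 and UGT78D2, did not pass, with a median difference of 1.05. DFR and BAN are counted among the 5 that rose. Of the 4 genes not among those followed here, 3 rose and 1 fell, beside 18.3% and 20.8% of all probe sets. In 2 of these 4 the mean over all arrays lay below log2 of 4. CHIL, a chalcone isomerase-like protein that raises flavonoid output early in the route, had the largest rise of the 8. It measured 6.38, 6.96 and 6.35 in wild type and 8.49, 8.68 and 8.81 in dcl1-15, a clear separation. Its mean rose by 2.10 ± 0.24 (SE) or 4.28-fold (limma adjusted p = 0.00029), and it passed under every setting tried. All 3 measured genes of the enzyme list, CHIL, DFR and BAN, therefore rose.

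On the decoration and transport list AT5G17040, the protein-coding gene next to UGT78D2 in the TAIR10.1 gene order, rose from 3.35 ± 0.14 to 4.52 ± 0.21 (adjusted p = 0.00308). Its wild-type values all lie below log2 of 4, and with the floor its difference went from 1.17 to 0.52 (adjusted p = 0.0308). Without both arrays numbered 2 it did not pass (adjusted p = 0.0809). It lies 1 gene from UGT78D2, whose own difference was 0.41, and cross-binding of related transcripts to either probe set was not tested. AT1G06000 rose from 6.71 ± 0.37 to 7.64 ± 0.26 (adjusted p = 0.0229). That call was lost without wild-type replicate 2 or 3 or without dcl1-15 replicate 1 or 2 (highest adjusted p = 0.0774). AT4G14090 fell from 3.72 ± 0.40 to 2.39 ± 0.13 (adjusted p = 0.0023), with 5 of its 6 values below log2 of 4, and with the floor it differed by -0.061 and did not pass. Without dcl1-15 replicate 2, 2 of the 8 genes rose, without dcl1-15 replicate 3, 3 rose, and without both arrays numbered 2 or both numbered 3, 2 rose in each case, whereas 6 rose without both numbered 1.

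The sterol list held 21 genes, of which UGT80B1, UGT80A2 and CPI1 were measured and 0 passed in limma, also at an unadjusted p under 0.05. UGT80A2, the other sterol glucosyltransferase of Arabidopsis, measured 8.77, 7.61 and 7.73 in wild type and 8.52, 7.60 and 8.12 in dcl1-15. The groups overlapped fully, and the difference was 0.041 ± 0.35 (SE, adjusted p = 0.938). CPI1, which opens the cyclopropane ring of plant sterol precursors, had means of 7.86 ± 0.16 and 7.84 ± 0.13 (adjusted p = 0.953).

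**Figure D3:**
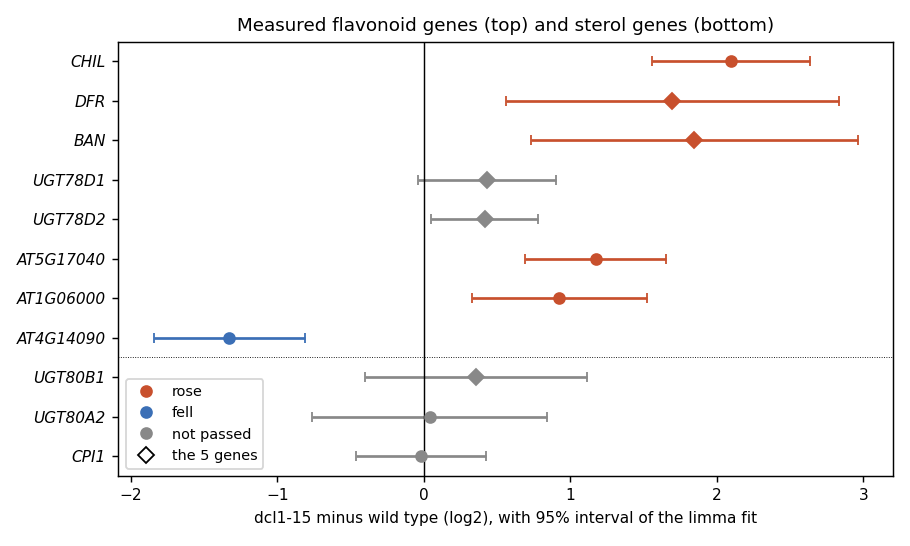
Difference between dcl1-15 and wild type (log2) with the 95% interval of the limma fit for the 8 measured genes of the flavonoid lists (above the dotted line) and the 3 of the sterol list; diamonds mark the 5 genes, orange rose, blue fell and grey did not pass. CHIL, DFR and BAN lie furthest to the right, AT4G14090 is the only one that fell, and the 3 sterol genes lie around 0.

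Against the wider glycosyltransferase family the 3 UGT genes were among those that did not pass. Of 29 genes with a UGT symbol 9 rose, 1 fell and 19 did not pass, with a median difference of 0.061. Among all probe sets 18.3% were called higher and 20.8% lower. UGT84A3 measured 3.96, 3.20 and 3.62 in wild type and 6.91, 6.60 and 6.78 in dcl1-15, a rise of 3.17 (limma adjusted p = 6.38e-05). UGT71B8 rose by 2.32 and UGT71C3 by 2.12. The 1 gene that fell, UGT87A2, went from 6.69 ± 0.18 to 4.26 ± 0.35, and without wild-type replicate 3 a second UGT gene passed as lower, 2 in all. Without both arrays numbered 1, 11 rose and 3 fell. Of the 29 genes 9 had all values below log2 of 4, among them UGT72E3 and UGT73C2, which rose. AT5G17040, AT1G06000 and AT4G14090, described above, entered the decoration list under the names UGT78D4, UGT89C1 and UGT75C1. These 3 loci carry no symbol in the annotation used and are not counted here. The first and second of them rose and the third fell.

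**Figure D4:**
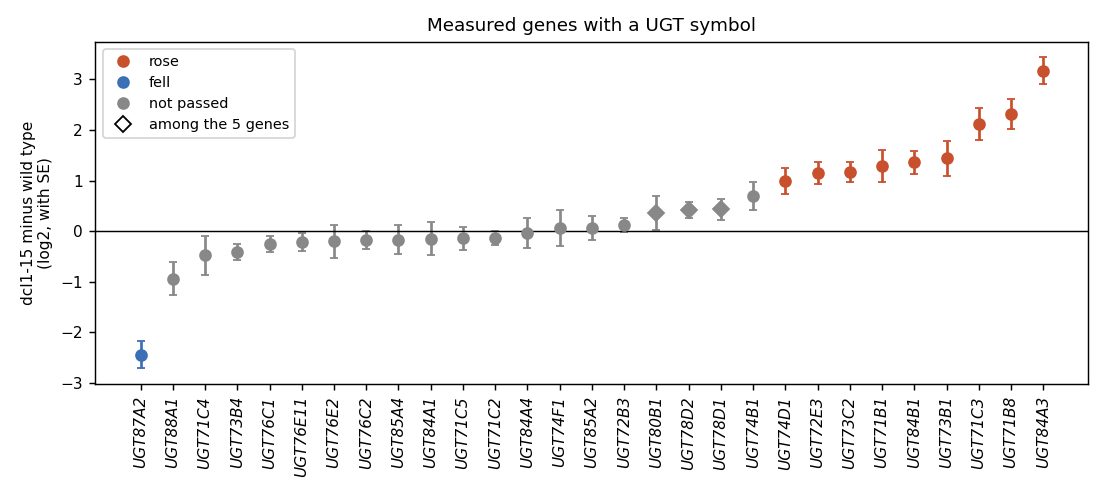
Difference between dcl1-15 and wild type (log2, bars are the SE of the limma fit) for the 29 measured genes with a UGT symbol, sorted by size; diamonds mark UGT80B1, UGT78D2 and UGT78D1. These 3 sit side by side above 0, at 0.36 to 0.43, below the 9 genes that rose.

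The genes whose values followed each of the 5 most closely were named by the Pearson correlation of log2 values over the 6 arrays, as a description, since the arrays share the genotype contrast and the offset of the arrays numbered 1. DFR was followed by AT1G22180, AT1G09550 and AT3G51000, each at r = 0.997, and all 3 rose, by 2.07, 1.98 and 1.38. As for DFR, these calls were lost without dcl1-15 replicate 2 or 3, and AT3G51000 passed under 7 of the 16 settings tried. BAN was followed by AT2G39400 (r = 0.997), AT5G51950 (0.996) and AT2G42360 (0.992), of which the first and second rose, by 2.41 and 3.07, the first not without dcl1-15 replicate 2 or 3. UGT78D1 was followed by VPS24.1 (r = 0.995), SDH1-1 (0.994) and AT2G47350 (0.994), none of which passed. For UGT78D2 they were AT2G41830 (r = 0.996), GSTU23 (0.991) and AT1G29470 (0.990), and all 3 rose, GSTU23 with all values below log2 of 4. Of these AT1G29470, which rose by 0.44, passed under only 5 of the 16 settings and AT2G41830 was lost without dcl1-15 replicate 1 or 3. For UGT80B1 they were AT5G23130 (r = 0.986), AT3G11690 (0.975) and AT1G62690 (0.973), and none passed. Of the single-gene probe sets 1.92% (185) had r above 0.95 with DFR, 1.78% with UGT78D1, 1.28% with BAN and 0.97% with UGT78D2. With UGT80B1 the share was 0.093% (9).

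**Figure D5:**
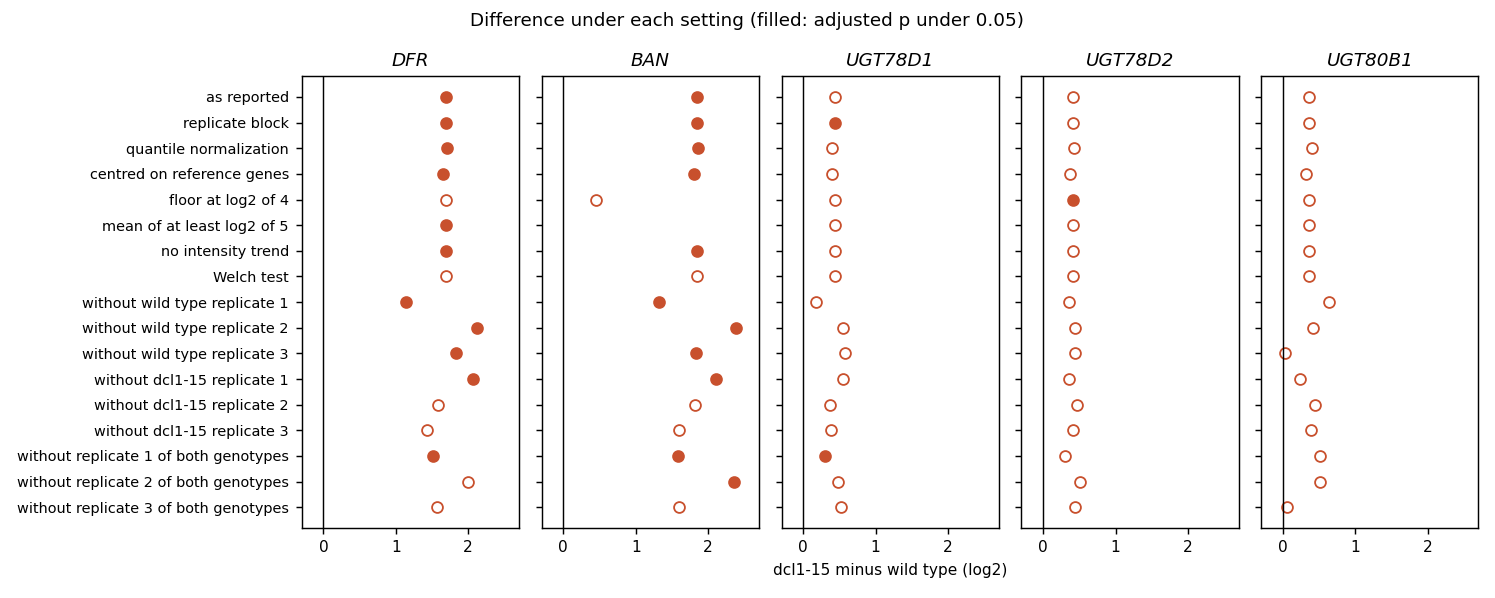
Difference between dcl1-15 and wild type (log2) for each of the 5 genes as reported and under each of 16 other settings; filled points had an adjusted p under 0.05. Every point lies above 0, DFR and BAN passed under 10 settings each, and BAN has no point where dim probe sets were left out and its smallest value, 0.46, with the floor.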

How the data were processed

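RNA of 6 embryo pools was amplified, labelled with biotin and hybridised to 1 array each, per the labels' protocols. The authors deposited normalized log2 values of 17159 probe sets. GCRMA and MAS5 are named in the submitters' processing notes, with no role given, so which of them made the values is unknown. After 37 control probe sets were set aside, 17122 were tested. Probe sets were named from the platform annotation and matched by gene identifier to RefSeq (TAIR10.1), which held 9584 of the 9631 single-gene ones. Where a listed gene had more than 1 probe set, the brightest was used.

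The fit of both genotypes used limma 3.58.1 under R 4.3.3 (lmFit, then eBayes with trend), and p-values were adjusted by Benjamini-Hochberg across the table. The procedure was also run on simulated data, in which few probe sets changed and same-numbered arrays shared no offset. That run therefore does not cover the wide change and the array offsets of this table. Pair differences used exact permutation in Python 3.11.15. Precision is limited by having 3 arrays a genotype, labelled as biological replicates. The genes and lists were chosen with earlier results of these data known. Genes named were the 5 genes, the measured pathway and marker genes, the 3 UGT genes changed most in each direction and the 3 genes most like each of the 5.

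Deviations of same-numbered arrays from their genotype means correlated at 0.48, 0.21 and 0.36, each above 0.1, so the numbers were taken as a possible pairing. This rests on the data alone, as no label states what a number marks. Wild-type array 2 correlated more with dcl1-15 array 3 (0.31) than with dcl1-15 array 2 (0.21). Wild-type array 3 correlated with dcl1-15 array 2 at 0.15. The reported calls come from the fit without the numbers, and the block on them is 1 of the alternative settings. The 16 alternative settings were the replicate number as a block, quantile normalization, centring on 5 reference genes, a floor at log2 of 4, a minimum mean of log2 of 5, no trend, Welch's test, and 1 array or 1 pair of arrays left out.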

Additional observations from a re-analysis of the deposited data

How the results depend on the processing

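The 5 differences kept their sign under all settings that gave a value, and UGT80B1 passed under none. With the replicate number as a block UGT78D1 passed at 0.43 (adjusted p = 0.0106), 2 UGT genes fell in place of 1, and no call of the other 4 genes changed. In that limma fit DFR had adjusted p = 0.000468 and BAN adjusted p = 0.00187. Without both arrays numbered 1 UGT78D1 passed at 0.30 and 3 UGT genes fell. With the floor at log2 of 4 DFR (1.70) and BAN (0.46) did not pass and UGT78D2 (0.41) did, so 1 of the 5 rose; DFR has no value below the floor, and its SE grew from 0.50 to 0.64. There calls fell to 4161 (1886 higher, 2275 lower) from 6702 (3140 and 3562), and 3 flavonoid genes rose and 0 fell. Among probe sets with a mean of at least log2 of 5, which leaves out BAN and so tests fewer genes, 1 of the 5, 3 flavonoid and 4 UGT genes rose, 0 flavonoid and 2 UGT genes fell, and 4409 probe sets were called, 1967 of them higher. Welch's test, with less information on the spread, called 2082 (997 higher, 1085 lower), 0 of the 5 (DFR 1.70, BAN 1.85), 2 flavonoid genes higher and 0 lower, and 3 UGT genes higher. 2 UGT genes fell without the trend or when centred on the reference genes, of which GAPC2 itself rose by 0.50. Without both arrays numbered 2, with fewer samples, 2493 probe sets were called (1327 higher, 1166 lower), DFR (2.00) did not pass, 1 of the 5, 2 flavonoid and 5 UGT genes rose. Without both numbered 3 these were 3151 (1702 and 1449), neither DFR (1.57) nor BAN (1.59) passed, 0 of the 5, 2 flavonoid and 5 UGT genes rose. With 1 array left out DFR lay between 1.14 and 2.12, BAN between 1.32 and 2.38, the lower calls between 2293 (without dcl1-15 replicate 2) and 4463, the 5 genes' rises between 0 and 2, flavonoid rises between 2 and 5, and UGT falls between 1 and 2. Then UGT78D1 against UGT78D2 shifted by -0.17 to 0.19, UGT78D2 against UGT80B1 by -0.27 to 0.42 and UGT78D1 against UGT80B1 by -0.45 to 0.55. The shift of DFR against BAN was 1.24 with the floor, which raises BAN alone. UGT80A2 lay between -0.18 and 0.41 with 1 array left out and at -0.13 without those numbered 3, and CPI1 between -0.11 and 0.030, at 0.013 with quantile normalization and at 0.072 and 0.061 without those numbered 1 and 2. The 7 pairs beyond the 3 planned were added after seeing the data. Where no construction is named the cause was not tested.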
